A study of Sus scrofa with 12 samples.

Results

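A set of 69 genes stood higher in pig blood cells given a miR-124 sponge and Salmonella than in cells given Salmonella alone or left untreated, while the Salmonella and untreated groups had similar mean values. The genes were selected on the deposited group means for that pattern, out of 7480 measured (0.922%). Each had an absolute difference of Salmonella minus control group means below 0.5 log2 units and a sponge plus Salmonella mean at least 1 unit above both other means and at 6 or higher. Of the 7480 genes, 4845 met the first condition, 248 stood at least 1 unit above both other groups, 98 did both and 73 of those reached the level of 6. The 4 of these 73 whose symbols start with RPL or RPS were left out. The group differences of the 69 genes therefore describe how they were chosen and were not tested.

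The libraries were made from peripheral blood mononuclear cells (PBMC), a mix of lymphocytes and monocytes, of Duroc, Landrace and Yorkshire crossbred piglets aged 4 weeks. There were 3 groups of 4 libraries, namely cells treated with the miR-124 sponge and Salmonella, cells treated with Salmonella, and non-treated controls, and cells were collected 12 h after treatment. The series names the bacterium as Salmonella Typhi and a design of 20 piglets, 10 male and 10 female, without saying which animal gave which library, so the spread between libraries may be technical. The word sponge stands in the descriptions of these samples and in the title of the series, whereas the sample titles and the columns carry only miR-124 with a short form of Salmonella. In bulk samples such as these, fewer cells of a type and less RNA per cell cannot be told apart.

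A microRNA guides an Argonaute protein to transcripts that pair with its seed, which lowers their stability or translation, and a sponge is a decoy RNA that occupies the microRNA. miR-124 is best known from neurons, and in mouse and human macrophages and microglia it has been described as a restraint on inflammatory activation. The response of blood cells to Salmonella runs largely through monocytes, which sense endotoxin and secrete inflammatory signals that act on lymphocytes. The 69 genes encode proteins of many kinds. None is among the 247 measured genes of 14 pathway lists, which cover reported miR-124 targets, interferon-stimulated genes, cytokines, translation, splicing, respiration, stress responses and the cell cycle. With 0.922% of all genes in the set, few would fall in these lists in any case, so nothing is read from that count.

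The deposited values are on a log scale whose base was taken as 2, so a difference of 1 unit stands for 2-fold. They come without read numbers, which leaves the depth unknown. A set of 171 symbols of olfactory receptors, taste receptors and keratin-associated and cornified envelope proteins, expected to be silent in blood cells, of which 43 were found in the pig gene tables, averaged 4.62 with a 95th percentile of 5.24, and these values are read here as background. The 4 sponge plus Salmonella columns differed in form from the rest, with 65.1% to 71.4% of all values, and 34.8% to 49.3% of the values of the 69 genes, identical to the value of at least 1 other gene in that column. In Salmonella and control columns at most 0.0802% of all values and 0 of the 69 genes were tied, so treatment and column type cannot be told apart. Of the 69 symbols, 66 were found in the pig gene tables, and C6ORF120, C2ORF69 and POLR2J4 were not.

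A pair of libraries stood apart from their groups over these genes. Averaged over the 69 genes, sponge plus Salmonella libraries 1 to 4 had 7.28, 7.49, 7.61 and 7.47 log2 units, Salmonella libraries had 6.73, 5.57, 5.68 and 5.35, and control libraries had 5.15, 5.72, 6.19 and 5.48. Salmonella replicate 1 thus lay more than 1 unit above the other Salmonella libraries, and control replicate 3 was the highest control, but the sponge plus Salmonella libraries overlapped with neither. The averages came to 7.46 ± 0.14 in the sponge plus Salmonella group, 5.83 ± 0.61 in the Salmonella group and 5.64 ± 0.44 in the control group (SD, n = 4 each). They came to 5.53 ± 0.17 in the Salmonella group without replicate 1 and 5.45 ± 0.29 in the control group without replicate 3 (n = 3 each).

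**Figure D1:**
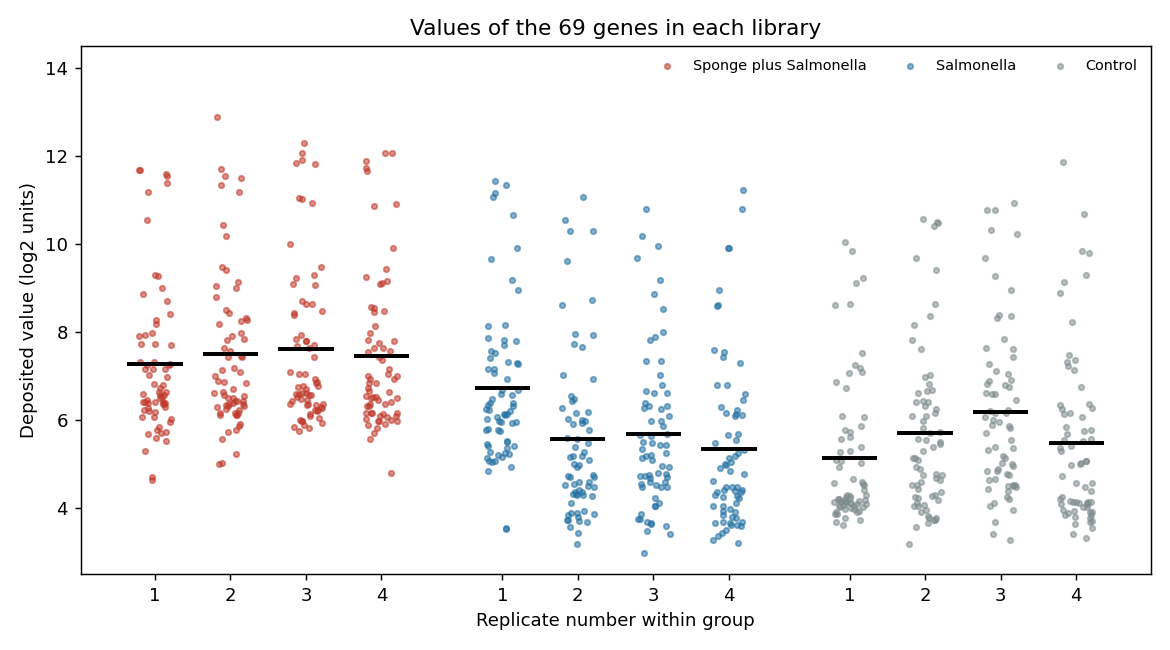
Each point is 1 of the 69 genes in 1 library (log2 units, vertical axis), with libraries grouped along the horizontal axis as sponge plus Salmonella, Salmonella and control, and black bars mark the library means. The bars sit between 7.28 and 7.61 in the sponge plus Salmonella libraries, at 6.73 in Salmonella replicate 1 and between 5.15 and 6.19 in the controls.

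Gene by gene the same 2 libraries led their groups. Salmonella replicate 1 held the highest of the 4 Salmonella values for 62 of the 69 genes, where it did so for 24.7% of all genes, and control replicate 3 held the highest control value for 57, where it did so for 25.5% of all genes. Both held for 56 of the 69 genes and for 11.5% of all genes. The rule used group means and not the spread within a group. The values of both libraries enter those means, so the counts are not independent of the choice of genes. These deviations were described after the genes were known and were not tested. Salmonella replicate 1 exceeded the mean of the other 3 Salmonella libraries by a median of 1.22 units over the 69 genes, against -0.06 over all genes. Control replicate 3 exceeded the mean of the other 3 controls by a median of 0.84 over the 69 genes, against -0.04 over all genes. Across all 7480 genes these 2 deviations had a correlation of 0.501, and across the 69 genes of 0.301, with all points sharing the same 8 libraries.

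**Figure D2:**
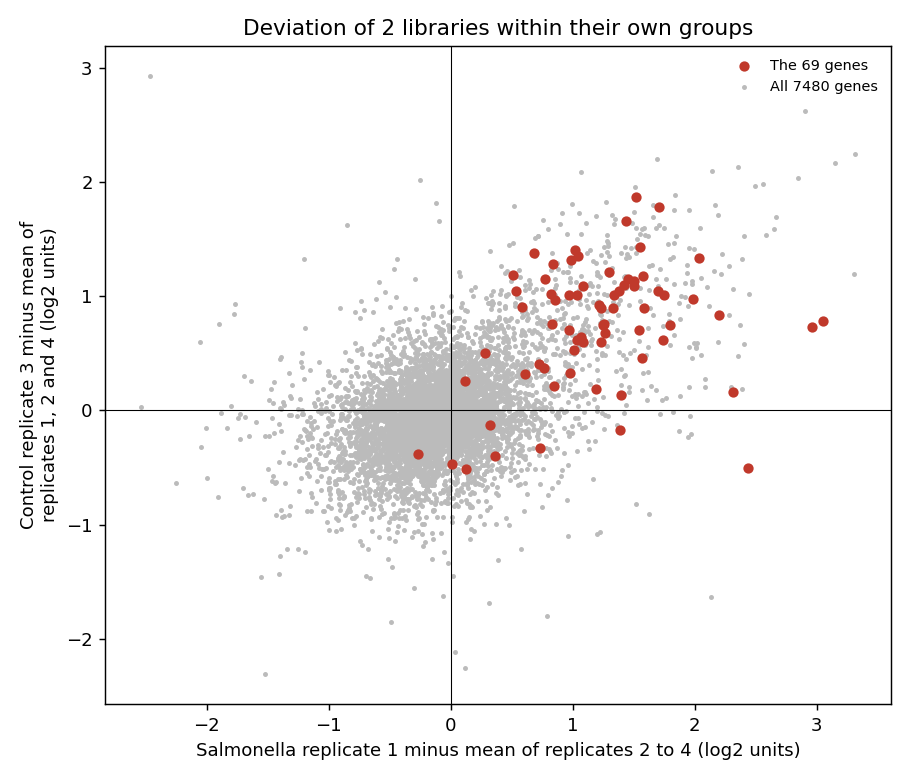
Each point is a gene, placed by how far Salmonella replicate 1 lies from the mean of the other 3 Salmonella libraries (horizontal axis, log2 units) and how far control replicate 3 lies from the mean of the other 3 controls (vertical axis, log2 units). Of the 69 genes in red, 68 lie right of 0 and 61 above 0, against 40.9% and 42.3% of all genes in grey.

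Over all 7480 genes, Salmonella replicate 1 had a correlation of 0.962 with the sponge plus Salmonella means. Salmonella replicates 2 to 4 had 0.940, 0.948 and 0.924. Control replicate 3 had 0.939, against 0.883, 0.928 and 0.911 in control replicates 1, 2 and 4. The mean of Salmonella replicate 1 over 22 interferon-stimulated genes was 10.45. Sponge plus Salmonella libraries had 8.15 to 9.45 on that measure, the other Salmonella libraries 10.60 to 11.13 and controls 7.10 to 7.74. For 44 of the 69 genes the value of Salmonella replicate 1 was nearer to the sponge plus Salmonella mean than to the mean of the other Salmonella libraries. For 22 it reached or passed the lowest sponge plus Salmonella value. Control replicate 3 reached that level for 7 genes. The shares of all genes for these counts were not taken, so nothing is read from them. All 4 sponge plus Salmonella values lay above all 8 others for 43 of the 69 genes, where 4.55% of all genes show this, and the count was 58 without Salmonella replicate 1 (8.11% of all genes) and 64 without both libraries (8.89% of all genes). The rule used these contrasts, so no weight is placed on the counts. On the same footing, 65 genes were called higher against Salmonella (background 11.9%) and 68 against control (background 17.9%) by limma at a Benjamini-Hochberg adjusted p below 0.05, and 0 were called between Salmonella and control (background 33.6%). The similar means of the Salmonella and control groups were averages over unlike libraries. Without Salmonella replicate 1, the median of Salmonella minus control over the 69 genes was -0.06 in place of 0.26, and 63 of the 69 stayed within 0.5.

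The size of many differences is limited by the background. For 35 of the 69 genes both the Salmonella and the control mean lay below 5.24, so the size of their differences is uncertain, while 32 genes had both means above it. Counted per library, 58, 61, 62 and 60 of the 69 genes were at 6 or higher in sponge plus Salmonella libraries 1 to 4, against 42, 20, 23 and 21 in Salmonella libraries and 15, 25, 32 and 21 in control libraries. The rule asked for a sponge plus Salmonella mean of 6 or higher and for lower means in the other groups. The contrast between groups in these counts therefore follows from the choice of genes. The sponge plus Salmonella mean was below 7 for 40 genes and at least 10 for 7. The median difference over the 69 genes was 1.45 against Salmonella and 1.77 against control, where all genes had medians of -0.04 and -0.07. It was 1.81 against Salmonella without replicate 1 and 1.95 against control without replicate 3.

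Proteins at the cell surface or outside the cell accounted for 8 genes. PLA2G2D, which encodes a secreted phospholipase A2, had the largest difference of the 69, with 7.74, 8.32, 8.64 and 8.54 log2 units in sponge plus Salmonella libraries 1 to 4, 5.95, 4.41, 3.74 and 4.61 in Salmonella libraries and 4.22, 5.29, 5.89 and 5.03 in controls. Its sponge plus Salmonella values lay 1.79 units clear of the highest other library, the widest gap among the 69 genes, and it averaged 8.31 ± 0.40 in sponge plus Salmonella, 4.68 ± 0.93 in Salmonella and 5.11 ± 0.69 in control libraries (SD, n = 4 each). It lies on chromosome 6, from 78391063 to 78397394 in the RefSeq annotation of Sscrofa11.1. TSPAN13, a tetraspanin, had 7.27, 6.33, 6.71 and 6.31 in sponge plus Salmonella, 5.08, 3.72, 4.47 and 3.28 in Salmonella and 3.97, 3.73, 4.53 and 3.65 in control libraries, with no overlap.

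GPR183, the oxysterol receptor that positions B cells and dendritic cells in lymphoid tissue, showed a tight sponge plus Salmonella group, with 6.39, 6.12, 6.22 and 6.17 in sponge plus Salmonella, 4.93, 3.73, 4.24 and 4.30 in Salmonella and 4.11, 4.07, 5.40 and 4.15 in control libraries. ADAM10, a protease that sheds surface proteins, averaged 6.21 ± 0.29 in sponge plus Salmonella, 4.45 ± 0.62 in Salmonella and 3.95 ± 0.11 in control libraries (SD, n = 4 each). RECK, a membrane-anchored inhibitor of matrix metalloproteinases, averaged 6.29 ± 0.41 in sponge plus Salmonella, 4.84 ± 0.63 in Salmonella and 4.49 ± 0.62 in control libraries, and neither gene overlapped. CFD, complement factor D, was the most abundant of the 69 genes, with 11.38, 12.88, 12.30 and 12.06 in sponge plus Salmonella, 11.16, 11.08, 10.80 and 11.23 in Salmonella and 10.05, 10.58, 10.32 and 11.87 in control libraries. Its control replicate 4 lay above sponge plus Salmonella replicate 1, so the groups overlapped. TGFBR2, a receptor for TGF-beta, also overlapped through control replicate 4, with means of 6.06 ± 0.43 in sponge plus Salmonella, 5.04 ± 0.19 in Salmonella and 4.89 ± 0.65 in control libraries.

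**Figure D3:**
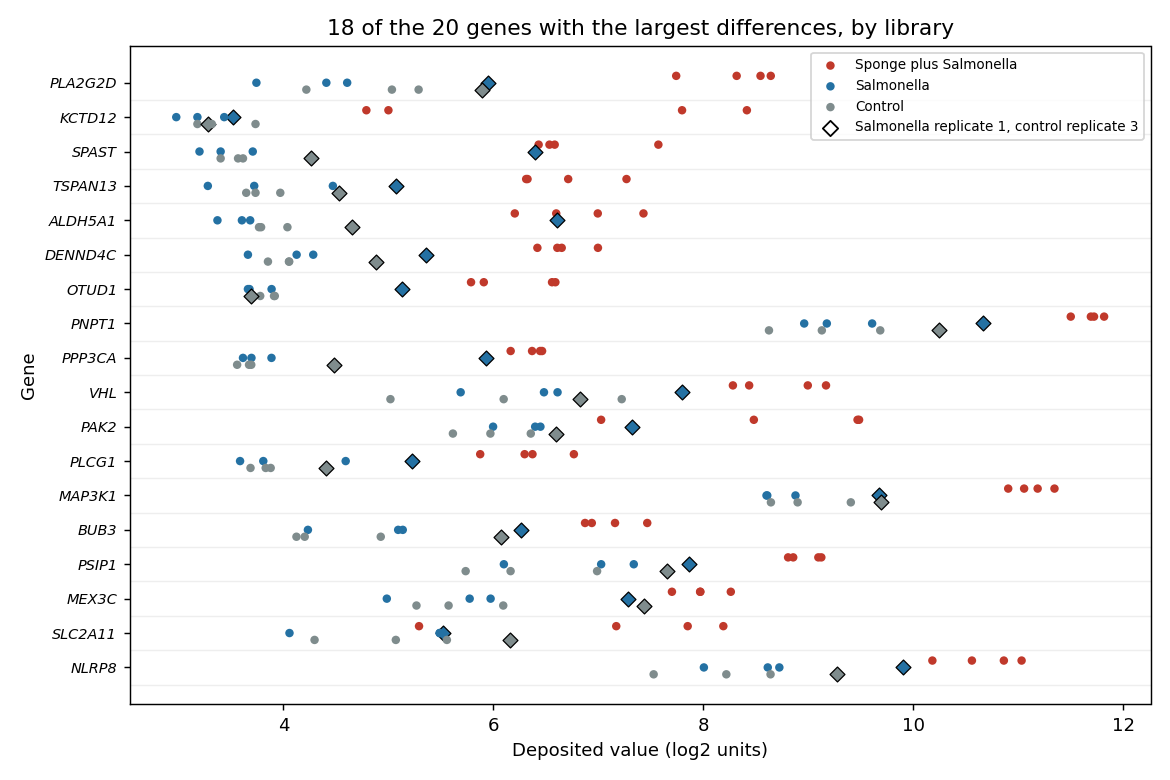
Values of 18 of the 20 genes with the largest differences (log2 units, horizontal axis) in each library, with sponge plus Salmonella in red, Salmonella in blue and control in grey, and with diamonds for Salmonella replicate 1 and control replicate 3. For PLA2G2D the sponge plus Salmonella values start at 7.74 and the highest other value is 5.95, while for ALDH5A1 Salmonella replicate 1 at 6.60 lies among the sponge plus Salmonella values.

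Signalling enzymes and adaptors numbered 11. MAP3K1, a kinase upstream of JNK and ERK, was abundant in every library and separated, with 11.18, 11.34, 11.05 and 10.90 in sponge plus Salmonella, 9.67, 8.61, 8.88 and 8.60 in Salmonella and 8.64, 9.40, 9.69 and 8.90 in control libraries. PLCG1, the phospholipase downstream of the T cell receptor, had 6.30, 5.87, 6.77 and 6.37 in sponge plus Salmonella against 5.23, 3.81, 4.59 and 3.59 in Salmonella and 3.88, 3.83, 4.40 and 3.69 in control libraries. All 4 Salmonella and all 4 control values were below the background percentile of 5.24, Salmonella replicate 1 only just. PPP3CA, the catalytic alpha subunit of the phosphatase calcineurin, showed 6.37, 6.44, 6.46 and 6.16 in sponge plus Salmonella, 5.93, 3.89, 3.70 and 3.62 in Salmonella and 3.69, 3.67, 4.48 and 3.56 in control libraries, and Salmonella replicate 1 came within 0.23 units of the sponge plus Salmonella values. MALT1, the paracaspase of antigen receptor signalling to NF-kB, averaged 7.89 ± 0.23 in sponge plus Salmonella, 6.31 ± 0.58 in Salmonella and 6.48 ± 0.37 in control libraries (SD, n = 4 each), without overlap.

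PAK2, a kinase activated by Rac and Cdc42, had 7.03, 9.47, 9.48 and 8.48 in sponge plus Salmonella, 7.32, 5.997, 6.40 and 6.45 in Salmonella and 5.61, 5.97, 6.60 and 6.36 in control libraries, and Salmonella replicate 1 passed sponge plus Salmonella replicate 1. MAP2K2, the ERK kinase MEK2, averaged 8.17 ± 0.59 in sponge plus Salmonella, 6.74 ± 0.53 in Salmonella and 6.77 ± 0.36 in control libraries. CERK, ceramide kinase, averaged 9.26 ± 0.15 in sponge plus Salmonella, 7.62 ± 0.58 in Salmonella and 7.91 ± 0.81 in control libraries, and for both genes the lowest sponge plus Salmonella value was close to the highest other one. PKIA, an inhibitor of protein kinase A, averaged 6.86 ± 0.32 in sponge plus Salmonella, 5.56 ± 0.996 in Salmonella and 5.11 ± 0.81 in control libraries, with overlap through Salmonella replicate 1. KCTD12, an auxiliary subunit of GABA-B receptors, was the most variable gene, with 8.41, 5.0004, 7.80 and 4.79 in sponge plus Salmonella, 3.52, 3.18, 2.98 and 3.44 in Salmonella and 3.73, 3.18, 3.28 and 3.32 in control libraries. Its sponge plus Salmonella replicates 1 and 3 were about 3 units above replicates 2 and 4, and the 4 Salmonella and 4 control values all lay below the background mean. Sponge plus Salmonella replicates 2 and 4 of KCTD12 also lay below the background percentile of 5.24. PPP2R3A, a regulatory subunit of protein phosphatase 2A, stood just inside the threshold averaging 7.22 ± 0.53 in sponge plus Salmonella, 6.22 ± 0.66 in Salmonella and 6.03 ± 0.54 in control libraries. It overlapped through Salmonella replicate 1 and control replicate 3. NLRP8, a member of the NLR family known in humans from oocytes, was separated, with 10.56, 10.18, 11.03 and 10.86 in sponge plus Salmonella, 9.90, 8.72, 8.00 and 8.61 in Salmonella and 7.53, 8.64, 9.27 and 8.22 in control libraries.

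Transcription and chromatin was the largest class, with 16 genes. Regulators of lymphocyte fate were among them. IRF4, a factor of activated lymphocytes and plasma cells, had 6.58, 6.72, 6.36 and 6.85 in sponge plus Salmonella, 6.58, 4.99, 5.69 and 5.05 in Salmonella and 4.53, 5.39, 5.999 and 5.06 in control libraries, and Salmonella replicate 1 was as high as sponge plus Salmonella replicate 1. SPIB, an ETS factor of B cells and plasmacytoid dendritic cells, had 6.18, 6.44, 6.05 and 5.99 in sponge plus Salmonella, 5.29, 4.31, 5.34 and 4.48 in Salmonella and 4.17, 4.54, 5.33 and 4.58 in control libraries, with no overlap. RORA, a nuclear receptor of the ROR family, had 5.72, 5.78, 6.75 and 6.03 in sponge plus Salmonella, 6.34, 4.36, 4.93 and 3.78 in Salmonella and 4.15, 4.22, 5.15 and 4.14 in control libraries, so Salmonella replicate 1 lay within the sponge plus Salmonella range. NR1D2, the circadian repressor REV-ERB beta, showed 6.27, 7.10, 6.58 and 6.53 in sponge plus Salmonella, 6.94, 4.72, 5.09 and 4.92 in Salmonella and 4.58, 5.71, 6.61 and 5.53 in control libraries. The sponge plus Salmonella range of NR1D2 took in both Salmonella replicate 1 and control replicate 3.

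Chromatin proteins in the class included PSIP1, CHD6, ARID2 and YEATS4. PSIP1, the chromatin tether LEDGF, had 8.86, 8.81, 9.09 and 9.12 in sponge plus Salmonella, 7.87, 7.03, 7.34 and 6.10 in Salmonella and 5.74, 6.99, 7.65 and 6.16 in control libraries. CHD6, a chromatin remodeller, averaged 6.71 ± 0.15 in sponge plus Salmonella, 4.91 ± 0.80 in Salmonella and 4.74 ± 0.77 in control libraries (SD, n = 4 each). ARID2, a subunit of the PBAF remodelling complex, averaged 7.004 ± 0.27 in sponge plus Salmonella, 5.93 ± 0.32 in Salmonella and 5.67 ± 0.87 in control libraries. The values of PSIP1, CHD6 and ARID2 did not overlap between sponge plus Salmonella and the other groups. YEATS4, which reads acetylated histones, overlapped through Salmonella replicate 1, averaging 7.22 ± 0.28 in sponge plus Salmonella, 6.04 ± 0.82 in Salmonella and 5.99 ± 0.74 in control libraries.

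Genes of the transcription machinery made up a further group within the class. SNAPC1, of the complex that activates small nuclear RNA genes, averaged 8.15 ± 0.44 in sponge plus Salmonella, 6.38 ± 0.86 in Salmonella and 6.24 ± 0.69 in control libraries. The elongation factor gene TCEA1 averaged 6.10 ± 0.35 in sponge plus Salmonella, 4.67 ± 0.39 in Salmonella and 4.21 ± 0.25 in control libraries. RRN3, a factor of RNA polymerase I, averaged 7.70 ± 0.15 in sponge plus Salmonella, 6.65 ± 0.55 in Salmonella and 6.56 ± 0.72 in control libraries. SNAPC1 and TCEA1 were separated, and RRN3 overlapped through control replicate 3. CHURC1, a zinc-binding regulator, averaged 9.86 ± 0.96 in sponge plus Salmonella, 7.73 ± 0.13 in Salmonella and 8.13 ± 0.93 in control libraries. The zinc finger gene ZBTB11 averaged 6.06 ± 0.08 in sponge plus Salmonella, 4.61 ± 0.94 in Salmonella and 4.21 ± 0.38 in control libraries, and its overlap was a single Salmonella value, that of replicate 1. NR2C1, an orphan nuclear receptor, averaged 6.07 ± 0.41 in sponge plus Salmonella, 4.73 ± 0.74 in Salmonella and 4.40 ± 0.37 in control libraries and was separated. POLR2J4, a symbol used in human for a transcribed pseudogene of an RNA polymerase II subunit, averaged 6.59 ± 0.32 in sponge plus Salmonella, 5.58 ± 0.70 in Salmonella and 5.41 ± 0.21 in control libraries. It overlapped through Salmonella replicate 1. Reads of a pseudogene and of its parent gene may not be told apart.

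Ubiquitin ligase and protease genes numbered 5. VHL, which recognises hypoxia-inducible factors for destruction, had 8.28, 8.99, 8.44 and 9.17 in sponge plus Salmonella, 7.80, 6.48, 6.61 and 5.69 in Salmonella and 5.02, 6.10, 6.82 and 7.22 in control libraries. OTUD1, a deubiquitinase, had 5.79, 6.56, 6.59 and 5.91 in sponge plus Salmonella, 5.13, 3.89, 3.66 and 3.68 in Salmonella and 3.91, 3.78, 3.70 and 3.92 in control libraries, with all values outside the sponge plus Salmonella group but that of Salmonella replicate 1 below the background mean. MEX3C, an RNA-binding ubiquitin ligase, had 7.97, 8.26, 7.70 and 7.97 in sponge plus Salmonella, 7.28, 5.77, 5.97 and 4.99 in Salmonella and 5.27, 6.09, 7.43 and 5.57 in control libraries. None of these 3 genes overlapped, though control replicate 3 of MEX3C came within 0.27 units. KBTBD7, an adaptor of cullin 3 ligases, averaged 6.13 ± 0.35 in sponge plus Salmonella, 4.52 ± 0.66 in Salmonella and 4.11 ± 0.50 in control libraries (SD, n = 4 each). KLHL28, a kelch-like protein, averaged 8.34 ± 0.57 in sponge plus Salmonella, 7.24 ± 0.83 in Salmonella and 7.17 ± 0.47 in control libraries and was the 1 gene of the class with overlap, through Salmonella replicate 1 and control replicate 3.

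Mitochondrial and peroxisomal proteins made up 8 genes, of which 7 had no overlap, against 43 of the 69 and 4.55% of all genes. The rule favours such separation, so no weight is placed on the count. PNPT1, the mitochondrial exoribonuclease PNPase, had 11.69, 11.50, 11.82 and 11.72 in sponge plus Salmonella, 10.66, 9.61, 9.18 and 8.96 in Salmonella and 8.62, 9.68, 10.24 and 9.13 in control libraries. PPA2, the mitochondrial pyrophosphatase, had 11.68, 11.54, 12.07 and 12.06 in sponge plus Salmonella, 11.35, 10.29, 10.18 and 9.91 in Salmonella and 9.22, 10.50, 10.77 and 9.83 in control libraries. C2ORF69, which encodes a mitochondrial protein, had 11.59, 11.18, 11.83 and 11.88 in sponge plus Salmonella, 11.08, 10.54, 9.68 and 9.91 in Salmonella and 9.11, 10.41, 10.78 and 9.80 in control libraries. In the sponge plus Salmonella libraries all 3 stood above 11, and in the other groups Salmonella replicate 1 and control replicate 3 were the highest each time. ALDH5A1, which breaks down succinic semialdehyde in GABA metabolism, was the exception to separation, with 6.20, 7.43, 6.60 and 6.99 in sponge plus Salmonella, 6.60, 3.68, 3.61 and 3.37 in Salmonella and 3.79, 4.04, 4.65 and 3.77 in control libraries. CCDC58, of the mitochondrial intermembrane space, averaged 6.35 ± 0.38 in sponge plus Salmonella, 4.57 ± 0.61 in Salmonella and 4.51 ± 0.33 in control libraries. The mitochondrial ribosomal protein gene MRPL45 averaged 6.95 ± 0.22 in sponge plus Salmonella, 5.57 ± 0.75 in Salmonella and 5.26 ± 0.37 in control libraries. MSTO1, a regulator of mitochondrial shape, averaged 6.27 ± 0.19 in sponge plus Salmonella, 4.99 ± 0.63 in Salmonella and 4.53 ± 0.37 in control libraries. In all 3 of these genes Salmonella replicate 1 remained below the lowest sponge plus Salmonella value. HSDL2, a peroxisomal dehydrogenase-like protein, averaged 7.54 ± 0.29 in sponge plus Salmonella, 6.46 ± 0.24 in Salmonella and 6.54 ± 0.47 in control libraries, the smallest difference from control of the 69 genes. The 22 measured genes of oxidative phosphorylation held none of the 69, with 4 higher and 2 lower in sponge plus Salmonella than in Salmonella libraries by limma at an adjusted p below 0.05 (background 25%), and 5 higher and 4 lower without Salmonella replicate 1 and control replicate 3.

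Vesicle traffic and cytoskeleton supplied 9 genes. SPAST, the microtubule-severing enzyme spastin, had 6.58, 7.57, 6.43 and 6.53 in sponge plus Salmonella, 6.40, 3.71, 3.403 and 3.20 in Salmonella and 3.62, 3.57, 4.26 and 3.403 in control libraries. Salmonella replicate 1 was 2.96 units above the mean of the other Salmonella libraries and only 0.03 below the lowest sponge plus Salmonella value. DENND4C, an exchange factor for Rab10, was separated by a wider gap, with 6.65, 6.996, 6.61 and 6.42 in sponge plus Salmonella, 5.36, 4.28, 4.13 and 3.66 in Salmonella and 4.05, 4.05, 4.88 and 3.85 in control libraries. CLTC, the clathrin heavy chain, averaged 6.07 ± 0.28 in sponge plus Salmonella, 4.67 ± 0.91 in Salmonella and 4.30 ± 0.32 in control libraries (SD, n = 4 each). VPS41, of the lysosomal tethering complex HOPS, averaged 9.39 ± 0.35 in sponge plus Salmonella, 7.92 ± 0.74 in Salmonella and 7.60 ± 0.57 in control libraries. Salmonella replicate 1 overlapped with the sponge plus Salmonella libraries for CLTC but not for VPS41. BICD2, a dynein adaptor, averaged 9.34 ± 0.53 in sponge plus Salmonella, 8.24 ± 0.80 in Salmonella and 7.87 ± 0.58 in control libraries. ANKRD27, which binds Rab proteins, averaged 6.19 ± 0.14 in sponge plus Salmonella, 5.06 ± 0.50 in Salmonella and 4.89 ± 0.71 in control libraries. The actin nucleator gene JMY averaged 6.16 ± 0.13 in sponge plus Salmonella, 4.62 ± 0.47 in Salmonella and 4.40 ± 0.39 in control libraries. Of these 3 genes, BICD2 overlapped, again through Salmonella replicate 1. TUBD1, delta tubulin, averaged 6.24 ± 0.32 in sponge plus Salmonella, 5.05 ± 0.82 in Salmonella and 4.79 ± 0.76 in control libraries, with overlap through Salmonella replicate 1. TMEM17, a protein of the ciliary transition zone, had 11.55, 11.70, 11.91 and 11.65 in sponge plus Salmonella, 11.43, 10.29, 9.96 and 10.79 in Salmonella and 9.85, 10.47, 10.93 and 10.69 in control libraries, and was abundant in every library.

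Transporters and lysosome formed a class of 5 in which 0 genes were free of overlap, against 43 of the 69 and 4.55% of all genes. Salmonella replicate 1 reached the sponge plus Salmonella range for all 5, against 22 of the 69, and the share over all genes was not taken. The solute carriers were the only gene family by symbol with more than 2 of the 69 genes. SLC39A8, the zinc and manganese importer ZIP8, had 6.73, 5.02, 6.27 and 6.72 in sponge plus Salmonella, 5.49, 4.94, 3.47 and 3.52 in Salmonella and 4.28, 4.69, 6.20 and 4.03 in control libraries, so sponge plus Salmonella replicate 2 lay below Salmonella replicate 1 and control replicate 3. SLC39A6, the related zinc importer ZIP6, averaged 6.02 ± 0.42 in sponge plus Salmonella, 4.73 ± 0.77 in Salmonella and 4.33 ± 0.25 in control libraries. SLC2A11, a hexose transporter, had 5.29, 8.19, 7.85 and 7.17 in sponge plus Salmonella, 5.52, 5.49, 5.49 and 4.06 in Salmonella and 4.30, 5.56, 6.16 and 5.07 in control libraries. SLC2A11 overlapped the most, since its sponge plus Salmonella replicate 1 lay below 3 Salmonella and 2 control libraries. SLC36A4, an amino acid transporter, averaged 6.46 ± 0.61 in sponge plus Salmonella, 5.39 ± 0.62 in Salmonella and 5.41 ± 0.67 in control libraries. IDS, the lysosomal iduronate sulfatase, had 5.60, 6.49, 6.33 and 5.99 in sponge plus Salmonella, 6.13, 3.94, 3.86 and 3.66 in Salmonella and 3.93, 3.96, 4.06 and 3.80 in control libraries, with Salmonella replicate 1 at the level of the sponge plus Salmonella group and the other 3 Salmonella values below the background mean.

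Genes of the cell cycle and translation control were BUB3, CCNG2 and PDCD4. BUB3, of the spindle checkpoint, had 7.16, 7.47, 6.87 and 6.94 in sponge plus Salmonella, 6.26, 5.09, 5.14 and 4.23 in Salmonella and 4.12, 4.93, 6.07 and 4.20 in control libraries. PDCD4, which restrains the translation factor eIF4A, averaged 7.94 ± 0.60 in sponge plus Salmonella, 6.52 ± 0.81 in Salmonella and 6.09 ± 0.62 in control libraries (SD, n = 4 each). CCNG2, a cyclin that rises when cells stop dividing, averaged 8.04 ± 0.31 in sponge plus Salmonella, 6.92 ± 0.46 in Salmonella and 6.51 ± 0.63 in control libraries. BUB3 and CCNG2 were separated, and PDCD4 overlapped through Salmonella replicate 1. The remaining 4 genes were placed in no class. BIVM averaged 6.39 ± 0.07 in sponge plus Salmonella, 4.96 ± 0.47 in Salmonella and 4.60 ± 0.25 in control libraries, with the smallest spread of all among sponge plus Salmonella libraries. FAM117A averaged 6.71 ± 0.16 in sponge plus Salmonella, 5.68 ± 0.51 in Salmonella and 5.41 ± 0.70 in control libraries. C6ORF120 averaged 6.16 ± 0.21 in sponge plus Salmonella, 4.58 ± 0.86 in Salmonella and 4.15 ± 0.26 in control libraries. SYAP1 averaged 6.05 ± 0.31 in sponge plus Salmonella, 4.84 ± 0.91 in Salmonella and 4.44 ± 0.51 in control libraries and was the 1 of these 4 with overlap, through Salmonella replicate 1.

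**Figure D4:**
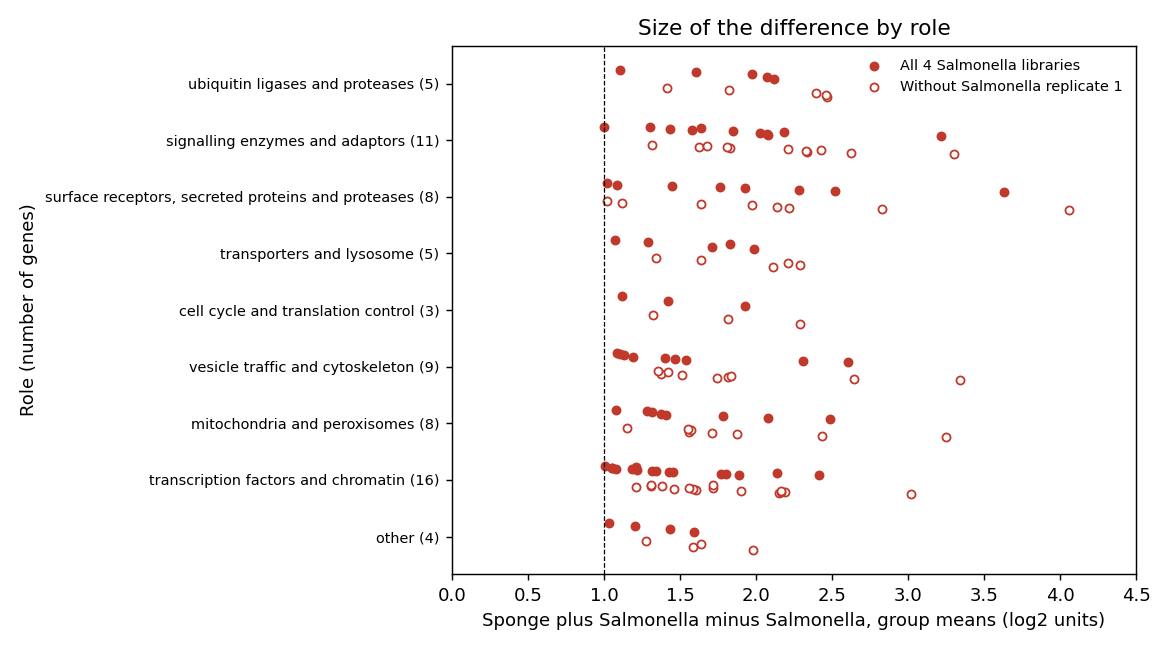
Each point is a gene, with the classes down the page and the difference of sponge plus Salmonella minus Salmonella group means along the horizontal axis (log2 units), filled for all 4 Salmonella libraries and open without replicate 1. The dashed line marks the threshold of 1 that chose the genes, so no filled point can lie left of it. Class medians of the filled points run between 1.32 and 1.97, and the classes overlap.

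The spread within the sponge plus Salmonella group differed between genes. Its SD was below 0.5 for 53 of the 69 genes and above 1 for 5, among them KCTD12 (1.87), SLC2A11 (1.29) and PAK2 (1.16). These genes did not share an order of libraries, since sponge plus Salmonella replicate 1 was the highest for KCTD12 and the lowest for SLC2A11 and PAK2. The smallest SDs belonged to BIVM (0.07), ZBTB11 (0.08), GPR183 (0.12) and PNPT1 (0.13). Within the group, replicates 1 to 4 held the highest value for 15, 20, 21 and 13 genes and the lowest for 28, 14, 12 and 15. Replicate 1 was thus the lowest more often than the other 3, for 28 of the 69 genes, where it was the lowest for 25.04% of all genes. The median SD was 0.32 in sponge plus Salmonella, 0.72 in Salmonella and 0.54 in control libraries, against 0.24, 0.23 and 0.19 over all genes. Without Salmonella replicate 1 the Salmonella median was 0.39, and without control replicate 3 the control median was 0.37, against 0.18 and 0.16 over all genes. For 59 of the 69 genes the sponge plus Salmonella SD was smaller than the Salmonella SD with replicate 1 kept. The share over all genes was not taken. The sponge plus Salmonella columns also differ in form by their tied values, so spreads of the groups may not be comparable.

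**Figure D5:**
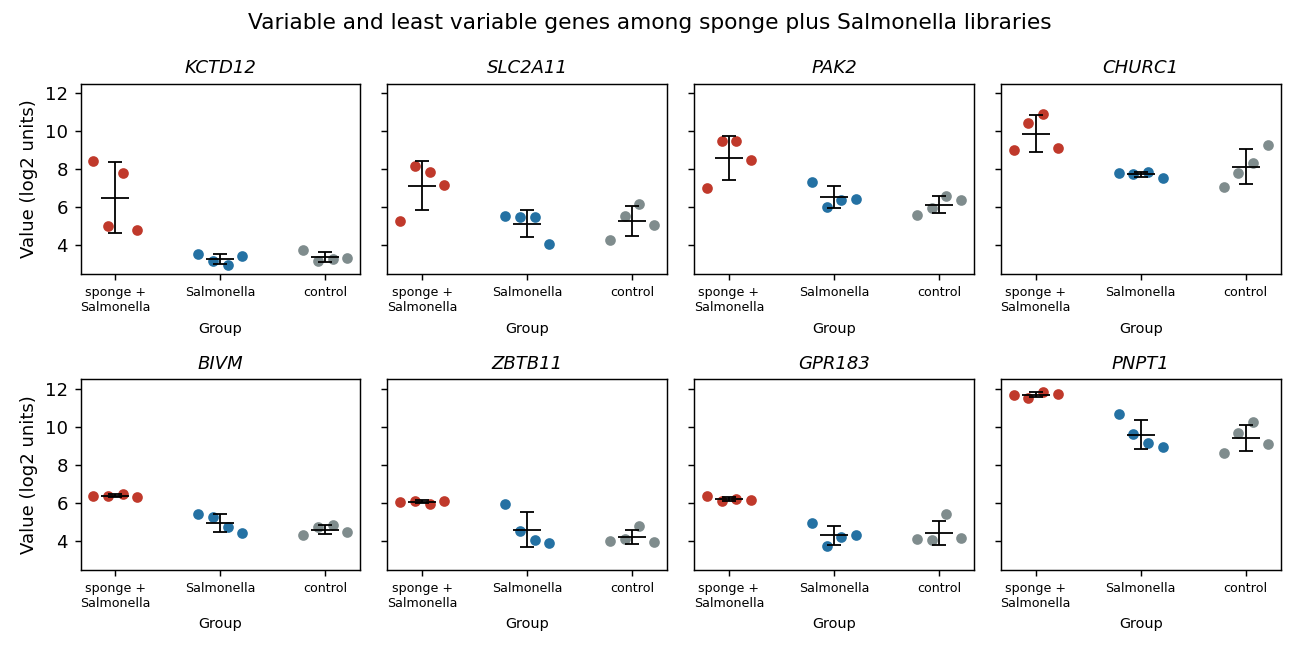
Values (log2 units) of 4 of the most variable genes and the 4 least variable genes among the sponge plus Salmonella libraries, with points for libraries 1 to 4 from left to right in each group, bars at the mean and error bars of 1 SD (n = 4). KCTD12 runs between 4.79 and 8.41 in the sponge plus Salmonella group, whereas BIVM stays between 6.32 and 6.49.

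At the edges of the rule the values were continuous. Just inside the threshold of 1 were HSDL2, PPP2R3A and POLR2J4, whose smaller difference was 1.0013, 1.0032 and 1.01, and just outside were CD69 at 0.998 and GTPBP8 at 0.973. ADAM10, SPAST and IDS were the last inside the limit of 0.5 on Salmonella minus control, at 0.4998, 0.465 and 0.460, and CDV3, LRIG1 and SLTM the first outside, at 0.502, 0.515 and 0.560. SLC39A6 and SYAP1 were the lowest inside the level of 6, with sponge plus Salmonella means of 6.02 and 6.05, and IKZF3, PIK3R1 and PM20D2 the highest outside, at 5.99, 5.90 and 5.89.

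The ribosomal protein genes that met the rule but were left out were 4 of the 38 measured symbols starting with RPL or RPS, namely RPLP1, RPS3A, RPL32 and RPL37A. RPLP1 had 9.96, 11.35, 10.72 and 11.19 in sponge plus Salmonella, 10.26, 6.61, 7.47 and 7.26 in Salmonella and 6.78, 7.15, 9.11 and 6.88 in control libraries. RPL32 had 6.18, 6.06, 6.11 and 6.21 in sponge plus Salmonella, 5.10, 4.78, 4.96 and 4.99 in Salmonella and 4.56, 5.10, 5.37 and 5.15 in control libraries. In all 4 genes Salmonella replicate 1 and control replicate 3 were the highest of their groups, by a wide margin for RPLP1 and a small one for RPL32. Ribosomal protein genes share sequence with numerous pseudogenes, and the values here are uncertain for that reason.

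The 66 genes found in the annotation were spread over 18 chromosomes. Chromosome 1 held 10, chromosome 13 held 7 and chromosome 6 held 6, of 599, 483 and 708 measured genes there, and chromosome 11 held 4 of 124. Neighbours within 1 megabase were PLCG1 and CHD6 on chromosome 17, CLTC and TUBD1 on chromosome 12, and SLC39A8 and PPP3CA on chromosome 8. CLTC (35848894 to 35926028) and TUBD1 (36079939 to 36111306) lie closest, with 153911 bases between them. The median gene length was 34.7 kb over the 66 genes and 26.5 kb over the 6906 measured genes with a length.

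Of 11 lists of cell type markers, those of T cells, B cells and monocytes are described here. Of 13 measured T cell markers 11 were higher in sponge plus Salmonella than in Salmonella libraries and 0 lower by limma at an adjusted p below 0.05 (background 25%), and against control 2 were higher and 7 lower (background 40.9%). The 4 with the smallest p against Salmonella were the T lineage factors BCL11B (1.44 ± 0.19 log2 units, SE, n = 4 each) and TCF7 (1.47 ± 0.23), the costimulatory receptor CD27 (1.26 ± 0.22) and CD3D of the T cell receptor complex (0.81 ± 0.15). CD3D also stood 1.04 ± 0.15 above control, so it was 1 of the 2 markers higher there. The means of CD3D and TCF7 over all libraries lay below the background percentile. The summed T cell values ran from 109.7 to 117.4 in sponge plus Salmonella, from 99.3 to 106.2 in Salmonella and from 117.9 to 121.8 in control libraries, so the groups did not overlap. Without Salmonella replicate 1 and control replicate 3, 9 T cell markers were higher and 0 lower against Salmonella, and 1 was higher and 5 lower against control.

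Of 5 measured B cell markers 4 were higher and 1 lower in sponge plus Salmonella than in Salmonella libraries, and 0 were higher and 3 lower against control (background 25% against Salmonella and 40.9% against control). CD79A, part of the B cell receptor, differed by 2.03 ± 0.20 from Salmonella and by -0.75 ± 0.20 from control. CD40, which monocytes also carry, was the 1 lower gene, at -1.47 ± 0.41 from Salmonella. Summed B cell values ran from 40.1 to 42.0 in sponge plus Salmonella, from 34.5 to 37.5 in Salmonella and from 41.9 to 46.2 in control libraries. Of 9 measured monocyte markers 0 were higher and 5 lower against Salmonella, and 5 were higher and 0 lower against control. Over all genes 13.2% were called lower against Salmonella and 17.9% higher against control. Without the same 2 libraries, 3 were lower against Salmonella and 6 higher against control. MS4A7, a membrane protein of monocytes and macrophages, differed by -1.89 ± 0.27 from Salmonella, and the fungal receptor gene CLEC7A by 2.32 ± 0.41 from control. Summed monocyte values ran from 85.5 to 89.6 in sponge plus Salmonella, from 91.9 to 94.1 in Salmonella and from 77.1 to 82.6 in control libraries. The sponge plus Salmonella sums of T cell and monocyte markers thus lay between those of the other groups, whereas the 69 genes stood above both by their choice. The part of these marker differences in the values of the 69 genes was not tested. IRF4 was the 1 gene of the 69 that a marker list held, that of dendritic cells.

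Within groups the lists did not follow the 69 genes throughout. The T cell mean in Salmonella replicate 1 was 7.65, against 7.83, 8.17 and 7.64 in replicates 2 to 4, and in control replicate 3 it was 9.37, against 9.20, 9.07 and 9.07 in replicates 1, 2 and 4. The monocyte mean was 10.41 in Salmonella replicate 1, against 10.32, 10.46 and 10.22 in the others. The share of all genes above the background percentile, a rough measure of how much was detected, was 50.2% in Salmonella replicate 1, within the 49.1% to 50.5% of its group, and 48.7% in control replicate 3, within the 47.3% to 49.3% of the controls. It ran from 50.1% to 51.5% in the sponge plus Salmonella libraries.

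Reported targets of miR-124, a list of 47 of which 27 were measured, held none of the 69 genes. By limma 3 were higher and 3 lower in sponge plus Salmonella than in Salmonella libraries (background 25%), with a median difference of -0.03 against -0.04 over all genes. LAMC1, a laminin chain, was higher by 1.68 ± 0.24 units (SE, n = 4 each). VAMP3, a vesicle fusion protein, differed by -1.39 ± 0.20, and STAT3, a cytokine-activated transcription factor, by -1.24 ± 0.25. Against control 10 were higher and 0 lower (17.9% and 23% of all genes), with a median of 0.30. In Salmonella against control, without the sponge, 11 were higher and 2 lower (15.7% and 17.9% of all genes), with a median of 0.32. Of the 27 genes, 11 had means over all libraries below the background percentile. Among the 10 higher with the sponge were IQGAP1, a scaffold of the actin cortex, at 2.48 ± 0.35 and the kinase gene ROCK2 at 1.77 ± 0.25. IQGAP1 differed by 1.82 ± 0.35 between Salmonella and control. With each column centred on its median, the sponge plus Salmonella counts against control were 9 higher and 4 lower. Without Salmonella replicate 1 and control replicate 3 they were 11 higher and 0 lower, with a median of 0.09. The comparisons of sponge plus Salmonella with Salmonella and with control share the sponge plus Salmonella libraries.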

How the data were processed

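RNA was sequenced from 12 libraries, 4 in each of 3 groups, as single reads. The authors deposited 1 table of log2 values for 7480 genes. Bowtie, R 3.4.2 and the pig genome Sscrofa11.1 are named per the submitters' processing notes, while the sources used here do not give the counting, the normalisation, the gene filter or the base of the logarithm. The base was taken as 2. Since no counts came with the table, no count model was used.

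Group means chose the genes, and symbols starting with RPL or RPS were dropped. The genes and the lists were chosen with earlier results of these data known, and the classes by role were assigned after the genes were known. Calls over all genes came from limma 3.58.1 in R 4.3.3, fitted on all 12 libraries with group means and a variance trend, with Benjamini-Hochberg adjustment over 7480 genes and a threshold of 0.05. The procedure was tested on simulated data with independent noise of the same spread in every group. Those data had no tied values and no libraries that stand apart, so the test does not cover these features. The rule for naming genes took the 20 with the largest smaller difference, the 8 most abundant, the 4 most and 4 least variable, those in a list, the solute carriers and genes at the thresholds. Values in every library are printed for most of these and for some genes chosen after their values were seen, and the other genes reported have their group means. Alternatives were other thresholds, medians, centred columns, a filter on the mean, a fit without the trend or on 2 groups, a replicate block and each library left out. Leaving out Salmonella replicate 1 and control replicate 3 together, and the alternatives for the gene lists, were chosen after seeing the data. Gene positions are those of RefSeq for Sscrofa11.1, matched by symbol. A few genes that the naming rule covers are not reported here.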

Additional observations from a re-analysis of the deposited data

Results flagged for a closer look

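Within each group of 4 libraries, the gap between the highest or lowest value and its nearest neighbour was divided by the range of the group, and a ratio above Dixon's 95% critical value marked a library far from the others. Over the 69 genes and 3 groups this gave 12 of 207 groups. Chance marks about 1 in 20 of independent groups, but the 69 genes share the same libraries. The total therefore cannot be judged against that rate. In 6 of the 12 the library was Salmonella replicate 1, above the other Salmonella libraries. These were ALDH5A1 (6.60 against 3.37 to 3.68 log2 units, ratio 0.904), IDS (6.13 against 3.66 to 3.94, ratio 0.886), PPP3CA (5.93 against 3.62 to 3.89, ratio 0.883), OTUD1 (5.13 against 3.66 to 3.89, ratio 0.847), SPAST (6.397 against 3.20 to 3.71, ratio 0.841) and NR1D2 (6.94 against 4.72 to 5.09, ratio 0.834).

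Control replicate 3 stood above the other controls for GPR183 (5.396 against 4.07 to 4.15, ratio 0.936), RORA (5.15 against 4.14 to 4.22, ratio 0.917), PPP3CA (4.48 against 3.56 to 3.69, ratio 0.854) and SYAP1 (5.20 against 4.11 to 4.28, ratio 0.835). Sponge plus Salmonella replicate 2 was above its group for SPAST (7.57 against 6.43 to 6.58, ratio 0.866). Salmonella replicate 4 was below its group for SLC2A11 (4.06 against 5.49 to 5.52, ratio 0.977).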

How the results depend on the processing

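The number of genes that met the rule depended on its thresholds and on single libraries. It was 30 with a difference of at least 1.5 and 28 with Salmonella minus control below 0.25, against 69. Leaving out each library in turn gave 38 to 119 genes, with 119 without Salmonella replicate 1 (63 of the 69 among them), 38 without Salmonella replicate 4 (36) and 40 without control replicate 3 (37). Without both Salmonella replicate 1 and control replicate 3 it was 91, including 66 of the 69. With centred columns it was 63 and with group medians 73, sharing 58 and 57 with the 69. Over 1932 alternative values of the differences of the 69 genes none changed sign, 68 fell below 1 and the lowest was 0.673.

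Calls over all genes stayed within 1.5 times under the alternatives run. The sponge plus Salmonella columns had medians 0.12 above control columns, and centring gave 1062 higher and 2569 lower genes against control (1336 and 1721 as deposited), and 965 and 1778 between Salmonella and control (1175 and 1338 as deposited). Without both libraries, T cell markers higher against control numbered 1 (also 1 with centred columns), monocyte markers lower against Salmonella 3, and oxidative phosphorylation genes lower against Salmonella 4. With centred columns 4 miR-124 targets were lower against control. With a replicate block, calls numbered 1706 against Salmonella, 2907 against control and 2371 between Salmonella and control, against 1873, 3057 and 2513 without it. Same-numbered libraries correlated between -0.36 and 0.38 in their deviations, and 4 of 24 matched their own number best. Low values near background limit the precision of small differences.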
